A study of Mus musculus with 12 samples.

Results

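The 6 oligos described here encode stretches of antibody variable (V) regions and were among those most lost from the spleen of 564 Igi mice. They were picked from 35898 array oligos because their signal fell by 11-fold or more in 564 Igi at 4 months against C57BL/6 at 4 months, and because they were neither J segment nor framework 3 end oligos. That contrast chose them, so its values are given below as a description, with no test. All RNA came from the spleen of female mice. The knock-in was sampled at 4 months with 3 arrays, at 8 months with 3 and at 12 months with 4, and C57BL/6 at 4 months with 2, the only control age. 564 Igi mice, on the C57BL/6 background, carry ready-joined V genes of 1 autoantibody knocked into the heavy and the light chain locus. By sample label they are 564+/-, but by the description of the breeding the strain was studied as 564+/+ homozygotes. Part of the 564+/+ colony drank water with ampicillin, metronidazole, neomycin and vancomycin, and it is not stated whether these animals did. Nothing says that each RNA came from a separate animal, so every error below measures the spread between these samples, which may be technical. Spleen RNA carried Cy3 and a universal reference RNA carried Cy5 on every array, with no dye swap.

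An antibody light chain starts with a signal peptide, which is cut off, and continues with a V region in which framework stretches alternate with 3 short hypervariable loops, the complementarity-determining regions (CDRs). In a developing B cell 1 of many V genes is joined to a J segment, so the spleen of an ordinary mouse holds a mixture of V transcripts. A 60-base oligo samples 1 stretch of 1 V gene or of a group of close relatives. In bulk spleen RNA, fewer cells that use a V gene and less of its RNA per cell cannot be told apart.

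The sequences are shown because they carry what is known of each oligo: the deposited files give an identifier and a sequence, list no genome position and pair no oligo with a gene. They follow in the order of their stretches along a light-chain V region, from its beginning, with an exception. M400010435 is listed before M400009424, which it overlaps, although the stretch of M400009424 starts nearer the beginning. Capitals mark the codons that place each oligo.

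M400009427: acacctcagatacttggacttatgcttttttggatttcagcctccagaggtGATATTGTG

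M400005853: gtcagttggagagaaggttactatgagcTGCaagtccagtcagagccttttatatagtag

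M400004030: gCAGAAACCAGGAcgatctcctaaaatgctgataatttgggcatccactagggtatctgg

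M400010435: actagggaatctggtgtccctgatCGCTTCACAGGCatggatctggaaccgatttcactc

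M400009424: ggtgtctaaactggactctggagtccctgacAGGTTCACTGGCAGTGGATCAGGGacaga

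M400005124: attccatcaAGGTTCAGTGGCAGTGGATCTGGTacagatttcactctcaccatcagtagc

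M400009427 reads in frame 1 without a stop over its 20 codons as the hydrophobic end of a signal peptide, and its capitals encode aspartate, isoleucine and valine, the first residues of the mature chain. It matched none of the protein patterns searched and was placed by reading its translation. M400005853 reads in frame 2 over 19 open codons, and its capitals are the codon of the conserved cysteine that ends framework 1, followed by the start of CDR1. M400004030 reads in frame 2 over 19 open codons as framework 2, from its turn of glutamine, lysine, proline and glycine (capitals), into CDR2. M400009424 reads in frame 2 over 19 open codons from the end of CDR2 into framework 3. M400005124 reads in frame 1 over 20 open codons as framework 3, and the capitals of both mark the arginine, phenylalanine and serine- or threonine-glycine motif with the glycine and serine run that follows.

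M400010435 reads in frame 1 from the end of CDR2 into framework 3, with the same motif in capitals, and then leaves that frame. Against M400009424 it has 38 of 47 aligned bases identical with 1 base missing after its base 37, and against M400005124 it has 29 of 33 identical with the same gap. Frame 1 runs without a stop over 20 codons but past that base framework 3 continues in frame 3.

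The 6 oligos sample 4 different stretches, and most pairs share little sequence. M400005124 and M400009424 overlap in framework 3 with 26 of 29 aligned bases identical (89.7%), the longest exact run being 12 bases. M400004030 ends where M400010435 begins, with 13 of 14 bases identical. The 11 pairs other than this one and those among the framework 3 oligos aligned over at most 13 bases. Members that overlap in framework 3 can bind related transcripts and are not independent readings of different genes.

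Values are log2 ratios of spleen over reference after background correction and loess normalization, and the limma fit covered all 12 arrays and the 26285 oligos that passed the filter on dim signal, the 6 among them. M400005124, in framework 3, had log2 ratios of 1.80 and 2.50 on the C57BL/6 arrays. In 564 Igi it had -3.69, -3.93 and -3.85 at 4 months, -3.37, -4.09 and -3.82 at 8 months, and -3.40, -4.01, -3.39 and -3.29 at 12 months. All 10 knock-in arrays lay far below both controls, while the 3 ages overlapped one another. Its raw Cy3 signal was 7021 and 7094 in C57BL/6 and between 87.1 and 138 in 564 Igi, where all 10 arrays were still marked by the scanner software as well above background. The fitted log2 difference from C57BL/6 was -5.97 (SE 0.26, 62.9-fold lower) at 4 months, -5.91 (SE 0.26) at 8 months and -5.68 (SE 0.25) at 12 months.

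M400010435, with the interrupted framework 3, had log2 ratios of 0.30 and 0.40 in C57BL/6. In 564 Igi it had -4.98, -5.17 and -4.70 at 4 months, -4.40, -5.32 and -5.30 at 8 months, and -4.55, -4.66, -4.61 and -4.89 at 12 months. No knock-in array came near the controls, and the highest and the lowest knock-in values both came from the 8-month group. Its difference was -5.30 (SE 0.24, 39.5-fold lower) at 4 months, -5.35 (SE 0.24) at 8 months and -5.03 (SE 0.23) at 12 months. The reference channel moved with the slide. Its raw Cy5 signal was between 4340 and 5585 on the 4 arrays of slide 1, all 564 Igi, and between 7937 and 9238 on the other 8 arrays. This was not particular to M400010435. M400005124 read 1118 to 1369 on slide 1 and 1765 to 2533 elsewhere, and M400009424 read 445 to 591 and 837 to 1282. M400005853 and M400004030 were also lower on every slide 1 array, while M400009427 was not. The part of the slide in the spread within 564 Igi was not tested.

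M400005853, at the end of framework 1, had log2 ratios of 2.65 on each C57BL/6 array. In 564 Igi it had -2.34, -2.70 and -2.45 at 4 months, -2.46, -2.59 and -2.60 at 8 months, and -2.19, -2.73, -2.35 and -2.42 at 12 months. The knock-in arrays covered a narrow band and all were well above background. Its difference was -5.14 (SE 0.15, 35.3-fold lower) at 4 months, -5.20 (SE 0.15) at 8 months and -5.07 (SE 0.14) at 12 months. The reference channel, which held the same RNA everywhere, read 1257 and 1201 on the C57BL/6 arrays and between 436 and 777 on the 564 Igi arrays. The low end of that range, 436 to 532, was slide 1, which held no control. On the slides with controls the 564 Igi arrays read 587 to 777. After normalization the difference over all ages was -5.89 in the Cy3 channel and -0.76 in the Cy5 channel, where the median oligo shifted by -0.017.

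M400009424, at the start of framework 3, had log2 ratios of 0.47 and 1.03 in C57BL/6. In 564 Igi it had -2.99, -2.88 and -3.12 at 4 months, -2.81, -3.31 and -2.97 at 8 months, and -2.97, -3.01, -3.22 and -3.19 at 12 months. The ages were intermixed, and 9 of the 10 knock-in arrays were well above background, the exception being replicate 1 at 12 months. Its difference was -3.75 (SE 0.18, 13.4-fold lower) at 4 months, -3.78 (SE 0.18) at 8 months and -3.85 (SE 0.17) at 12 months.

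M400009427, at the end of the signal peptide, had log2 ratios of 3.74 and 4.22 in C57BL/6 and between -0.19 and 0.025 on the 10 arrays of 564 Igi. None of those 10 arrays was well above background in Cy3, so only a bound can be given. Its raw Cy3 signal was 1287 and 1491 in C57BL/6 and between 45.0 and 63.2 in 564 Igi. The bound was taken from the Cy3 channel, normalized together with Cy5 as described below, and is open to dye bias without a swap. Each 564 Igi array entered at the lowest signal counted as well above background, or at the oligo's own signal where that was higher. So taken, its Cy3 signal was at least 24.4-fold lower at 4 months, at least 23.7-fold lower at 8 months and at least 24.0-fold lower at 12 months. This bounds Cy3 and not the ratio to the reference, for which the fit, with 564 Igi at background, gave log2 differences of -4.07, -4.04 and -4.09. In Cy5 it was well above background on the C57BL/6 arrays only, at 91.5 and 109, against 47.1 to 64.6 on the 564 Igi arrays. The reference RNA was the same on all arrays, and the part of this in the log2 ratio was not tested.

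M400004030, in framework 2 and CDR2, had log2 ratios of 2.62 and 2.97 in C57BL/6. In 564 Igi it had -0.61, -0.27 and -1.37 at 4 months, and between -1.15 and -0.73 on the 7 arrays of the later ages. It was well above background on 1 knock-in array, replicate 1 at 4 months. That array stands apart from the others: 91.1% of all oligos were well above background in Cy3 on it, against 69.3% to 75.8% on the other 11. The log2 difference of M400004030 at 4 months was -3.54 (SE 0.25) with all arrays and -3.61 without that one. By the same bound its Cy3 signal was at least 17.0-fold lower at 8 months and at least 15.6-fold lower at 12 months, where the log2 ratio, at background in 564 Igi, gave -3.82 and -3.67. Here its own signal set nearly all of the bound. Its mean log2 Cy3 was 6.063 at 8 months and 6.189 at 12 months, against 6.068 and 6.197 in the bound.

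For each of the 6 the C57BL/6 level came first, and the order of the 3 knock-in ages below it was within their spread. All 10 knock-in arrays lay below both controls for each member, which 5.28% of 26005 oligos with a value on every array also did. The median log2 difference of the 6 was -4.60 at 4 months, -4.62 at 8 months and -4.56 at 12 months, beside medians over all oligos tested of 0.0097, -0.0012 and 0.0028. With 6 values this median lies midway between M400005853 and M400009427, and the latter was not well above background in 564 Igi. With members measured on no array of the knock-in group at their Cy3 bound it was -4.88, -4.88 and -4.81. Those medians mix Cy3 bounds with ratios to the reference, and the part of this change of measure was not separated. Of all oligos tested, 0.339% were called lower at 4 months, 0.495% at 8 months and 0.586% at 12 months (limma, adjusted p under 0.05), the 6 among them at each age. Nothing is read from that count of 6: the 4-month contrast picked them, the others share its C57BL/6 arrays, and M400009427 and M400004030 passed the filter on dim signal only through C57BL/6. Slide 2 had a single array from every group, and on it the 6 differed from the control by -5.65 to -3.59 at 4 months, -5.89 to -3.74 at 8 months and -5.81 to -3.49 at 12 months. On slide 3 they differed by -6.32 to -3.92 at 8 months and -5.85 to -3.75 at 12 months, and slide 1 held no control.

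The remaining signal was a small share of the control's where it could be measured. In the scanner software's processed Cy3 signal, the 10 knock-in arrays averaged 0.707% of the C57BL/6 mean for M400005124, 0.645% for M400005853 and 1.80% for M400010435. These shares lie below what the log2 differences above give. The log2 differences add an offset of 50 to each signal and are ratios to Cy5, and the parts of these choices were not separated. With the scanner software's own log ratio the median difference of the 6 at 4 months was -6.01 in place of -4.60. At each age this choice moved each of the 6 further than leaving out any array did.

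The threshold of 11-fold held 14 oligos. Beside the 6, there were 4 with a J segment pattern and 4 with a framework 3 end pattern. M400004030 was the member nearest to it, at a fitted 11.65-fold that rests on 1 of 3 knock-in arrays well above background, and M400003383, with a framework 3 end, lay just inside at 11.4-fold. Just outside were M400004200, with a framework 3 end, at 10.3-fold and M400001203, which matched no pattern, at 9.74-fold. Membership moved with the data: without 564 Igi 4 months replicate 3, the fitted fold of M400004030 was 9.40, and without C57BL/6 replicate 2 it was 10.3.

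Comparing 12 with 8 months asks whether the lost signal changed with age, in arrays that had no part in the choice of the 6. No member passed the test, and none had an unadjusted p under 0.05 (limma, 1109 of the 26285 oligos had one, and 0.0% were called). M400005124 differed by 0.24 (95% CI -0.24 to 0.71, limma adjusted p = 0.990). M400010435 differed by 0.33 (CI -0.11 to 0.77, limma adjusted p = 0.990). For M400005853 the difference was 0.13 (CI -0.15 to 0.40) and for M400009424 it was -0.070 (CI -0.39 to 0.25), with limma adjusted p of 0.990 and 0.991. The intervals allow a rise with age of up to 0.71 in M400005124 and 0.77 in M400010435 on the log2 scale, small beside their differences from C57BL/6. They limit the fitted difference only. The raw Cy3 signal of these oligos at these ages ran from 68.9 (M400009424) to 277 (M400010435). The added offset of 50 draws differences between such low signals toward 0. M400009427 and M400004030 were not well above background on any array of either age, so no difference between these ages is given for them.

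The 2 comparisons with 4 months share its knock-in arrays with the choice of the 6. Among the 4 oligos measured at all ages, 8 against 4 months gave -0.055 to 0.059, with 826 of all oligos at an unadjusted p under 0.05 and 0.0% called by limma. For 12 against 4 months they gave -0.10 for M400009424, 0.073 for M400005853, 0.28 for M400010435 and 0.30 for M400005124, with 0.0038% of all oligos called by limma. No member was called in either, at an adjusted p from 0.759 upward, and none had an unadjusted p under 0.05.

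Oligos on the array that share sequence with the 6 are described here, without a conclusion on how far the fall extended. An oligo was taken as a relative if it shared an ungapped stretch of at least 25 bases with at least 80% identity on the same strand, which 11 oligos outside the 6 did. Of these, 4 were called lower at 4 months and none higher (limma, adjusted p under 0.05), and the median of the 11 was -0.29. Over all 26285 oligos tested, 0.339% were called lower and 18 were called higher. The 4 were M400005568, M400004225, M400003431 and M400006815, and the last passed the filter on dim signal only through C57BL/6. Only M400005568, M400004225 and M400006035 among the 11 matched an antibody pattern. The others were not placed, and a V-region oligo can miss every pattern, as M400009427 did. Shown here are the 2 relatives that overlap a framework 3 member over the most bases and 1 relative of M400004030 that went the other way, with the same framework codons in capitals.

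M400005568: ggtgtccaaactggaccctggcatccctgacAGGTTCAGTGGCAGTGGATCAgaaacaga

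M400004225: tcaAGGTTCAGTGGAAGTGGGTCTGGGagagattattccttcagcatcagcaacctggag

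M400006035: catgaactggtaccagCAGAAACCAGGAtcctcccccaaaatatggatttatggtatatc

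M400005568 is the nearest relative of M400009424, over its whole length and with 53 of 60 bases identical. In C57BL/6 its log2 ratio was 3.06 ± 0.34 (SD, n = 2) and at 4 months in 564 Igi it was 0.30 ± 0.036 (SD, n = 3), a fall of 6.79-fold (log2 difference -2.76, SE 0.14, limma adjusted p = 4.5e-07). The groups did not overlap, and the falls at 8 and 12 months were 7.01-fold and 7.44-fold, the latter with 3 of 4 arrays well above background. M400004225 aligns with M400005124 over 50 bases, of which 40 are identical. It fell by 4.26-fold at 4 months (SE 0.21 on the log2 scale, limma adjusted p = 0.000263), and with the scanner software's log ratio the difference was -1.30 and the call was lost (limma adjusted p = 0.361).

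M400006035 shares the framework 2 turn and 22 of 27 bases with M400004030, and went the other way. Its log2 ratio was 2.01 ± 0.54 (SD, n = 2) in C57BL/6, and in 564 Igi it was 4.09 ± 0.95 (n = 3) at 4 months, 4.61 ± 0.45 (n = 3) at 8 months and 5.03 ± 0.51 (n = 4) at 12 months. The log2 difference of 2.08 at 4 months did not pass (limma adjusted p = 0.135). At 8 months it was 2.60 (adjusted p = 0.0397) and at 12 months 3.03 (adjusted p = 0.00788), both called by limma. With slide as a block the 4-month difference was 2.74 and was called (limma adjusted p = 0.0275), as it was with median centring (0.0457). Leaving out 1 array ended the 8-month call for 7 of 12 arrays, with limma adjusted p up to 0.206, and among these the 12-month call for C57BL/6 replicate 1 alone (0.091). With the uneven background as deposited both calls were lost (limma adjusted p of 0.286 and 0.151), and without background subtraction or with the scanner software's log ratio the 8-month call was (0.0543 and 0.0623). Every knock-in array lay above both control arrays.

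M400007938 shares 21 of 25 bases with M400009424 and was also higher in 564 Igi. Its log2 difference was 1.79 at 4 months (limma adjusted p = 0.0906), 2.00 at 8 months (0.0397) and 2.18 at 12 months (0.0128). At 4 months it was called with slide as a block (limma adjusted p = 0.00279), median centring (0.00468) or Cy3 alone (difference 3.89, 0.000657), and when either of 2 arrays was left out. The 8-month call was lost without any of 8 arrays and under 4 of the 11 other settings. The 12-month call was lost without C57BL/6 replicate 1 (limma adjusted p = 0.126), with the uneven background as deposited (0.0765) and with only the arrays compared (0.0538). M400006815, with 30 of 36 bases of M400005853, was among the 4 called lower but was well above background on 1 of the 10 knock-in arrays, so no fold is given. M400005218, with 21 of 25 bases of the signal peptide oligo M400009427, differed by 0.083 at 4 months (SE 0.14, limma adjusted p = 0.838). The nearest relative of M400010435 was M400009424 itself.

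The light-chain patterns in which the members lie held further oligos, in 2 of the patterns of both directions. Of the 5 tested framework 3 oligos, all were called lower at 4 months, 3 of them members and the others M400005568 and M400004225. Of the 3 at the end of framework 1, M400005853 and M400001205 (4.52-fold) were called lower and M400006301 (3.45-fold) higher. Of the 12 framework 2 oligos, 4 were called lower, M400004030 among them, and 4 higher. Over all 26285 oligos tested, 0.339% were called lower at 4 months and 18 were called higher. The calls of the members add nothing here, since the same contrast picked them. These patterns were chosen with results of these arrays known and support no direction on their own.

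Across the 12 arrays, the 5 other oligos whose log2 ratio followed the mean of the 6 most closely were M400010429 and M400010432, with J segment patterns, and M400004199, M400004552 and M400004200, with framework 3 ends (Pearson r of 0.996 to 0.997). These correlations rest almost wholly on the step between strains. Over the 10 knock-in arrays alone, the 5 closest (M200008018, M400017050, M300010932, M200003027 and M300012424, r of 0.907 to 0.916) matched no antibody pattern and differed from C57BL/6 at 4 months by -0.17 to 0.085. Among the 3 members well above background on all 10, r was 0.75 between M400005853 and M400005124, 0.61 between M400010435 and M400005124, and 0.49 between M400005853 and M400010435. With the mean of the 6 over those 10 arrays, the members themselves had r from -0.66 (M400009427) to 0.86 (M400005124). That mean includes M400009427 and M400004030, which were mostly at background there. All these arrays share 1 reference RNA and 3 slides, and these values are a description without a test.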

How the data were processed

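Two-colour Agilent arrays of spleen RNA (Cy3) against universal reference RNA (Cy5) were analysed, 1 sample per array on 3 slides. Per the file headers, Feature Extraction 11.5.1.1 made the deposited values: mean and background intensity per spot on the scanner's linear scale, processed signals with a fitted spatial surface subtracted and the local background subtraction switched off, and log10 ratios after lowess dye normalization (smooth factor 0.25). The log10 ratio is reference over sample, and its sign was turned here. The authors' deposited series table holds the same log10 ratios rounded.

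Here, limma 3.58.1 in R 4.3.3 corrected the mean intensities by normexp (offset 50, with the local background of spots marked uneven replaced by the array's median and those spots left out) and normalized each array by loess. For the values of each channel and the bounds, the average intensity of both channels was then quantile normalized between arrays after loess. The setting named Cy3 alone used quantile-normalized Cy3 without loess. Spots of 1 oligo were averaged. Oligos well above background in Cy3 on all arrays of at least 1 group were kept (26296 of 35898), and 26285 had a value in every group. One fit with a coefficient per group had 8 residual degrees of freedom and p-values adjusted by Benjamini-Hochberg over all oligos tested. The fit was tested on simulated data. Sequences were aligned and translated with Biopython 1.88 in Python 3.11.15. The number of arrays limits the precision.

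The members, lists and tests were chosen with earlier results of these data known. Named beside the 6 are the oligos nearest the 11-fold threshold, each member's nearest sequence relative and any that moved the other way, and the 5 oligos most like the mean of the 6 over 12 and over 10 arrays. Of the relatives, 5 were refitted under the alternatives that gave them a value. M400001205, M400006301 and M400003431 were named after their values were seen. Genes, genome positions and cell type markers were not analysed here, since no table used here pairs oligos with genes.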

Additional observations from a re-analysis of the deposited data

Results flagged for a closer look

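One result stood out within its group. Among the 4 arrays of 564 Igi at 12 months, M400005124 had log2 ratios of -4.01, -3.40, -3.39 and -3.29, and the gap between the lowest and the next took up 0.858 of the group's range, above Dixon's critical value for 4 values at 95%. The group was tested in this way for each of the 6 oligos, and chance alone marks about 1 such group in 20. The low array, replicate 2, was on slide 2, where the other 564 Igi arrays read -3.85 at 4 months and -4.09 at 8 months.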

How the results depend on the processing

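All 6 oligos stayed below C57BL/6 at each age in every one of the 23 alternatives that gave a value (11 settings and 12 arrays left out in turn, 405 values). The median log2 difference of the 6 (-4.60, -4.62 and -4.56 at 4, 8 and 12 months) rests in part on M400009427, which was at background in 564 Igi. It became -4.15 at 4 months and -4.38 at 8 months if spots on an uneven background entered the fit as deposited. It became -5.13, -5.16 and -5.02 with an offset of 16, -6.01, -6.13 and -6.12 with the scanner log ratio, -4.26, -4.31 and -4.29 with median centring, and -4.88, -4.86 and -4.85 with Cy3 alone. With both channels well above background it rested on 3 oligos, at -5.30, -5.35 and -5.07. Leaving out 1 array kept it within -4.73 to -4.48 at 4 months, -4.74 to -4.50 at 8 months and -4.70 to -4.41 at 12 months. With the uneven background as deposited, or with median centring, M400004030 and M400009424 no longer passed 11-fold at 4 months.

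No member was called between ages under any alternative. The 12 against 8 month difference changed sign, without a call, for M400005853 (-0.35), M400010435 (-0.072) and M400005124 (-0.29) with the uneven background as deposited, for M400005853 with the scanner log ratio (-0.12) and Cy3 alone (-0.036), and for M400009424 without 564 Igi 8 months replicate 1 (0.039), where leaving out 1 array gave -0.21 to 0.039. Over the other settings the difference of M400009424 kept its sign but ranged from -0.69 to -0.039, and the lowest lies outside its interval given above. The cause of these changes was not tested.

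Same-numbered arrays of different groups correlated at r = -0.23 to 0.29, with 5 of 15 pairs over 0.1, so the numbers were taken as names only. With them as a replicate block the median of the 6 was -4.61 at 4 months, and oligos called higher went from 34 to 55 at 8 months and from 84 to 50 at 12 months.

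Over the whole array, calls at 4 months (18 higher, 89 lower) were 8 and 104 with the uneven background as deposited, 10 and 57 with the scanner log ratio, 20 and 49 with median centring (29.0% higher in place of 16.8%), 15 and 39 with both channels required, 54 and 143 with only the arrays compared, and ranged from 5 (without C57BL/6 replicate 1) to 30 higher and from 58 (without 564 Igi 4 months replicate 2) to 176 lower (30 and 176 without 564 Igi 12 months replicate 4) with 1 array left out. At 8 months (34 and 130) the 11 settings gave 6 to 73 higher and 54 to 133 lower, and leaving out 1 array gave 7 (without C57BL/6 replicate 1) to 334 higher and 81 to 242 lower (334 and 242 without 564 Igi 8 months replicate 2). At 12 months (84 and 154) the settings gave 23 to 117 and 81 to 197, and higher calls were 36 and 32 without C57BL/6 replicate 1 or 2. Under stricter definitions, 2 tested oligos in place of 11 shared at least 40 aligned bases, and 2 an exact run of 15.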
